A study of Rattus norvegicus with 10 samples.

Results

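The response of adult rat cardiomyocytes to the chemokine domain of fractalkine was measured on 5 of the 10 arrays of the series, chosen by their titles. On each array, RNA of cells given residues 25 to 100 of the protein for 24 hours competed with RNA of control cells given bovine serum albumin (BSA). The remaining 5 arrays compared cells given full-length fractalkine with the same kind of control. Treated and control cells of an array came from a single isolation, with 3 isolations in the series, and the labels do not tie arrays to isolations. Some of the 5 domain arrays must therefore share an isolation, and n = 5 below counts arrays, not isolations. Strain, sex and age of the rats, the species and dose of the protein and any pooling of hearts are also unstated in the labels.

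Fractalkine (CX3CL1) is made as a membrane protein in which a folded chemokine domain is held above the cell surface by a long glycosylated stalk. Metalloproteinases can release the extracellular part, which then acts as a soluble attractant. Its receptor CX3CR1, a G protein coupled receptor best known from monocytes, microglia and lymphocytes, is bound by the chemokine domain, and the stalk serves mainly to present that domain for cell adhesion. Comparing the isolated domain with the whole protein therefore asks which effects on heart muscle cells need the stalk.

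Each value was a log ratio of both dyes as the authors deposited it. The dye label gives the orientation of an array, with treated RNA in Cy5 on arrays 1 and 2 and in Cy3 on arrays 3 to 5. The labels do not say whether the deposited ratio was Cy5 over Cy3 or treated over control. A response to the domain would make values switch sign with the orientation in the first case and keep a single sign on all arrays in the second. Both components were estimated for every probe, and signs are therefore those of the ratio, not of a rise or fall in treated cells. Any other difference between arrays 1 and 2 and arrays 3 to 5 cannot be told apart from the orientation.

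No gene could be named. The platform annotation gave a single symbol for 23535 of 44290 probes. Over 5658 symbols with at least a pair of probes, the profiles of paired probes over the domain arrays correlated at a mean of -0.006, against -0.002 for random pairs, and their domain log ratios at a Pearson r of -0.013. In 24 accessions represented by 8 or more probes, the intraclass correlation of probes lay between -0.026 and 0.026 on the domain arrays. Even the mean size of the log ratio, a measure that does not need a response to treatment, had a Spearman correlation of -0.034 between probes of a symbol. Probes are therefore given by their number in the table, cardiomyocyte and inflammatory gene lists were not evaluated, and the labelled cell type was not checked against its markers.

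All 5 domain arrays held 44290 values with 0 missing. Their medians lay between -0.0089 and 0.0082, and their standard deviations over probes were 0.156, 0.228, 0.220, 0.193 and 0.212 on arrays 1 to 5. Array 1 was the quietest, with 282 values beyond 0.5 in size where the other arrays had 893 to 1406. Most values were small, and beyond 0.5 lay between 0.637% and 3.17% of an array. Some of these arrays shared an isolation, and the separate cultures behind them were not described. The spread between arrays, on which all p-values rest, is thus not a spread between independent isolations and may in part be technical.

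Arrays that shared a dye orientation resembled each other weakly, and arrays of opposite orientation were weakly opposed. Across all probes, arrays 1 and 2 correlated at a Pearson r of 0.058. Arrays 3 and 4 correlated at 0.086, arrays 3 and 5 at 0.079 and arrays 4 and 5 at 0.065. These 4 pairs of equal orientation all lay above 0. Array 1 correlated with arrays 3, 4 and 5 at 0.014, -0.085 and -0.077. Array 2 correlated with the same arrays at -0.072, -0.040 and -0.056. Of the 6 pairs of opposite orientation, 5 thus lay below 0, and arrays 1 and 3 were the exception. Leaving out probes with a value beyond 1 in size changed little, with 4 of 4 pairs above and 5 of 6 below 0. Full-length arrays 4 and 5, of equal orientation, correlated at a Pearson r of -0.37 over all probes, so their direction relative to each other is not settled. Probes are not independent replicates, so no p-value is attached to these correlations.

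**Figure D1:**
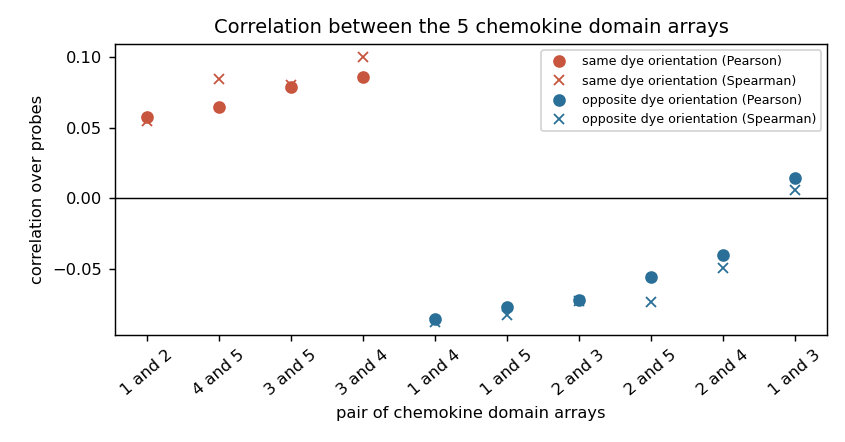
Correlation over 44290 probes for each of the 10 pairs of chemokine domain arrays, on the vertical axis, with circles for Pearson and crosses for Spearman. The 4 pairs of equal dye orientation (red) lie above 0, and 5 of the 6 pairs of opposite orientation (blue) lie below 0.

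Counting signs probe by probe separated both components further. Values of 4349 probes, or 9.82%, switched sign with the orientation on all 5 arrays, and 2730, or 6.16%, kept a single sign. Random signs would also give both patterns, about equally often, so neither number is a count of responding probes. Where every value had to exceed 0.1 in size, 530 probes switched and 128 kept their sign. Beyond 0.2, the counts were 52 and 2. Beyond 0.3 on every array, 6 probes switched and 0 kept their sign. Larger and more repeatable values were thus found mainly in the switching pattern. This is a description of the 5 arrays, without a test.

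**Figure D2:**
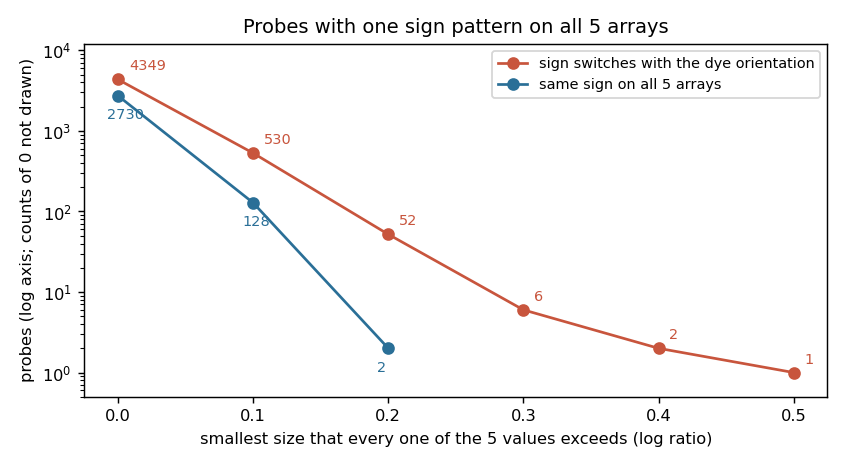
Number of probes on a log axis against the smallest size that all 5 values of a probe exceed, for probes that switch sign with the dye orientation (red) and probes of a single sign (blue). Both counts fall with size, from 4349 and 2730 at any size to 52 and 2 beyond 0.2.

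The same contrast appeared when probes were chosen on arrays of a single orientation and followed on the others. On arrays 1 and 2, 271 probes lay beyond 0.3 with a common sign. On arrays 3 to 5, 88 of them, or 32.5%, had the opposite sign on all 3 arrays, and 19, or 7.01%, had the same sign. Without a bar on size, 22926 probes had a common sign on arrays 1 and 2. Of those, 4349 were opposite and 2730 alike on all 3 other arrays. In the reverse direction, 74 probes lay beyond 0.3 with a common sign on arrays 3 to 5. Of these, 46, or 62.2%, had the opposite sign on both arrays 1 and 2, and 3, or 4.05%, had the same sign. Without a bar on size, 13345 probes had a common sign on arrays 3 to 5, and the same 4349 and 2730 were opposite and alike. Random signs are alike on 2 arrays more often than on 3, so the shares of both directions cannot be compared. Values were smaller where they had not been used for the choice: the 271 probes had a median size of 0.41 on the choosing arrays and a median mean of -0.07 on the others, counted relative to the first sign. A higher bar of 0.5 left 19 probes on arrays 1 and 2, of which 4 were opposite and 2 alike on all the other arrays. Their mean on arrays 3 to 5 was opposite for 8 and alike for 11, so the 19 probes as a group did not switch. In the reverse direction 1 probe lay beyond 0.5 on arrays 3 to 5. It was opposite on both arrays 1 and 2, with a mean of -0.81 relative to the first sign. That probe is among the 19 and is the one that passed in the test below.

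The first test asked which probes differed between domain-treated and control cells when the values are read as Cy5 over Cy3. In limma 1 of 44290 probes passed an adjusted p of 0.05, which is 0.00226% of the probes tested. Unadjusted p was under 0.05 for 3516 probes, or 7.94%, with 1391 (3.14%) of positive and 2125 (4.8%) of negative sign. The median log ratio of all probes was -0.01. The median half-width of the 95% interval was 0.167 log units and the median size of the log ratio was 0.063. A log ratio of the median size could thus not be told apart from 0 on 5 arrays. The constant component had a similar median size of 0.056. The sizes ran beyond 0.3 for 309 probes, and 210 of these had a single turned sign on all 5 arrays, against 4349 (9.82%) of all probes. Choosing by size on the same arrays favours a single turned sign, so the 210 are no separate support. Turned means multiplied by -1 where treated RNA was in Cy3.

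The component that kept its sign, which is the response if the values already are treated over control, passed for 0 probes in limma. Its smallest adjusted p was 0.966, and 2069 probes, or 4.67%, had an unadjusted p under 0.05. Beyond 0.3 in size lay 129 probes, 37 of them with a single sign on all arrays, against 2730 (6.16%) of all probes. The switching component thus had more probes at low p than the constant component, as the plot of p-values shows.

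**Figure D3:**
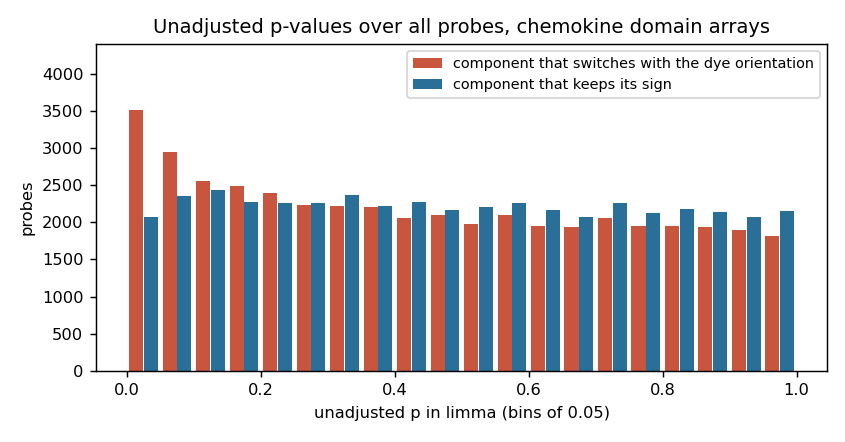
Number of probes in each bin of 0.05 of the unadjusted p in limma, for the component that switches with the dye orientation (red bars) and the component that keeps its sign (blue bars) on the 5 chemokine domain arrays. The lowest bin holds 3516 probes for the switching and 2069 for the constant component.

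The probe that passed is called the passing probe below. On domain arrays 1 to 5 its values were 0.735, 0.888, -0.748, -0.675 and -0.845. Both arrays with treated RNA in Cy5 were high and all 3 with treated RNA in Cy3 were low, so the orientations did not overlap. Its log ratio was 0.78 (95% interval 0.63 to 0.94, adjusted p = 0.0028 in limma), with turned values of 0.778 ± 0.087 (SD, n = 5). The constant component was 0.03 (interval -0.13 to 0.18). It no longer passed without array 2, at a log ratio of 0.75. Leaving out array 1 or array 2 leaves 1 array with treated RNA in Cy5. The spread within that orientation then cannot be estimated, so calls in these fits cannot show how stable a probe is. Without array 2 the threshold was passed instead by probe 13283, whose value was 2.75 on array 1 and between -0.143 and 0.126 on arrays 3 to 5. Without array 1, 8 probes passed, among them the passing probe (adjusted p = 0.02), and 6 of the 8 had a single value beyond 1 with the other 4 under 0.5.

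The next probes did not pass in this fit. Probe 35611 had 0.445, 0.398, -0.45, -0.401 and -0.586 on arrays 1 to 5. Its log ratio was 0.45 (0.30 to 0.60, adjusted p = 0.26 in limma). On the negative side, probe 35549 had -0.475, -0.506, 0.411, 0.309 and 0.431. That gave a log ratio of -0.44 (-0.59 to -0.29, adjusted p = 0.26). Probe 27723 varied more, with -0.2, -0.663, 0.624, 0.439 and 0.388 and a log ratio of -0.46 (-0.64 to -0.28, adjusted p = 0.43). All 3 switched sign with the orientation on every array, and turned standard deviations were 0.077, 0.075 and 0.188 in the order named. In a joint fit with all 5 full-length arrays none of the 3 passed (adjusted p = 0.11, 0.11 and 0.18 in limma). In a joint fit with full-length arrays 1 to 3 only, probes 35611 and 35549 passed (adjusted p = 0.048 for each) and probe 27723 did not (0.11 in limma). All 3 passed when the probes of smallest spread were left out (0.0073, 0.012 and 0.0056). In that setting 54 probes passed, and 30 of these had a single value beyond 1 with the others under 0.5. No other setting tried passed any of the 3.

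Together with the passing probe, probes 35611 and 35549 belonged to the 6 that switched beyond 0.3 on every array. The others were probes 24718, 38882 and 41435, named here after their values were seen. Probe 41435 had the smallest spread of the 6, with 0.412, 0.445, -0.455, -0.413 and -0.454, a log ratio of 0.43 and turned values of 0.436 ± 0.022 (SD, n = 5). Its adjusted p was 0.26 in limma, whose moderated fit draws the spread of each probe towards a common value of 0.172. Probes 24718 and 38882 had log ratios of 0.44 and 0.39 (adjusted p 0.28 and 0.43). Of the 6 log ratios, 5 were positive under this reading.

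Among the 52 probes that switched beyond 0.2 on every array, 34 were positive and 18 negative when turned. The sizes of their log ratios ran from 0.27 to 0.78, with a median of 0.34, and 1 of the 52 passed. Turned values of a probe had a median standard deviation of 0.092, against 0.162 over all probes. Since the rule picked probes of large and regular values, this compares nothing independent of it.

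**Figure D4:**
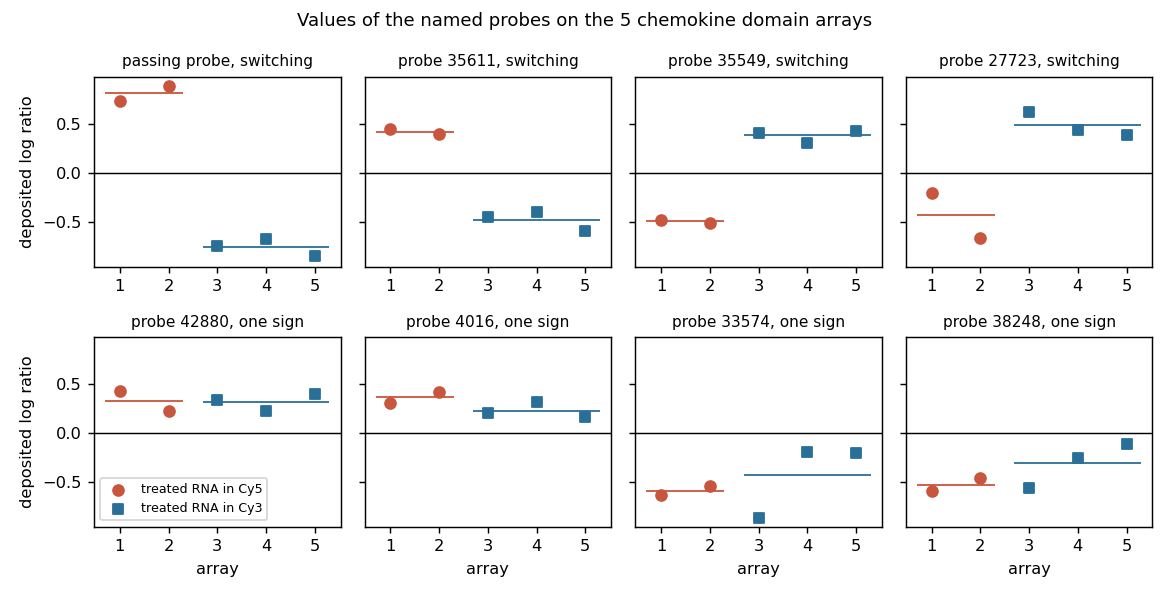
Deposited log ratios of 8 probes on chemokine domain arrays 1 to 5, with treated RNA in Cy5 (red circles) or Cy3 (blue squares) and the fitted level of each orientation as a line. The 4 switching probes in the upper row change sign between arrays 2 and 3, and the 4 probes of the lower row keep their sign.

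Few probes kept a single sign at a large size. Probe 42880 had 0.435, 0.222, 0.337, 0.222 and 0.403 on arrays 1 to 5, and a constant component of 0.32 (0.17 to 0.48, adjusted p = 0.97 in limma). Probe 38223, named after its values were seen, was the other probe beyond 0.2 on every array, with -0.354, -0.275, -0.339, -0.533 and -0.318. These are the 2 of this kind. Probe 4016 followed on the positive side with values from 0.164 to 0.418. On the negative side, probe 33574 had -0.626, -0.54, -0.864, -0.192 and -0.204, and probe 38248 had -0.586, -0.46, -0.556, -0.255 and -0.109. Both were farther from 0 on arrays 1 to 3 than on arrays 4 and 5, and the constant components were -0.50 and -0.41 (adjusted p = 0.97 for each).

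Large log ratios were mostly single spots. Beyond 1 in size lay the switching log ratios of 8 probes, or 0.0181%, and 0 of these passed in limma, with 4 at an unadjusted p under 0.05. In 7 of the 8 a single array exceeded 1. Probe 17606, for instance, had 6.14 on array 2 and between -0.135 and 0.215 on the others. Probe 35918 had -7.15 on array 5 and at most 0.236 in size elsewhere. Over the 5 arrays 30 values exceeded 2 in size, all in different probes, and in 26 of these probes the other 4 values stayed under 0.5. Array 5 held 14 of the 30 values, and array 1 held 1. Log ratios beyond 1 thus came mostly from a single array. Of the 25 probes beyond 0.5, which include those beyond 1, 8 had a single turned sign on all 5 arrays. A single sign can go with a single large value. Probe 34036 had a single turned sign with 6.58 on array 4 and at most 0.408 in size elsewhere. It was the only 1 of the 8 with a single turned sign. The constant component lay beyond 1 in size for 9 probes, 2 of them with a single sign on all 5 arrays.

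The last question was whether the isolated domain and the full-length protein differ. Both were given for 24 hours, the labels state no dose, and this was the only pair of compounds. In limma 0 of 44290 probes passed for the domain minus the full-length protein, with a smallest adjusted p of 0.861. Unadjusted p was under 0.05 for 2375 probes, or 5.36%. Without full-length arrays 4 and 5, 0 passed again, with 2319 probes, or 5.24%, at an unadjusted p under 0.05. Over all arrays the median half-width of the interval, which is not adjusted for the number of probes, was 0.223 log units. Smaller differences were thus mostly not resolved even for a probe taken alone. Larger differences did not pass over all probes either. With values read as treated over control, 0 probes passed as well (smallest adjusted p = 0.999 in limma). Unadjusted p was then under 0.05 for 1287 probes. The series counts 5 treated and 5 control samples in all, and the labels do not say whether both forms shared control RNA. Taken as written, that is fewer samples than array channels, so some RNA would have been used on several arrays.

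The passing probe had 0.237, 0.659, -0.368, -0.481 and -0.75 on the full-length arrays 1 to 5. The same signs as with the domain appeared on 5 of 5 arrays, with sizes smaller than the lowest of the domain arrays on 4 of them. Domain minus full-length was 0.28 (0.05 to 0.51, adjusted p = 0.86 in limma) and 0.37 (0.12 to 0.63, adjusted p = 0.91) without full-length arrays 4 and 5. On the full-length arrays probe 35611 had 0.306, 0.355, 0.0532, -0.344 and -0.212, with array 3 near 0. Its difference was 0.22 (0.02 to 0.43, adjusted p = 0.86). For probe 35549 the full-length values were -0.0926, -0.242, 0.207, -0.00603 and 0.492, and the difference was -0.22 (-0.44 to -0.01, adjusted p = 0.86).

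Full-length values of probe 27723 were 0.204, -0.154, 0.141, 0.161 and 0.539, and the forms differed by -0.30 (-0.57 to -0.04, adjusted p = 0.86). Probe 41435, so regular with the domain, had -0.0415, -0.104, -0.207, 0.124 and -0.298 with the full-length protein, without a common pattern. It differed by 0.39 (0.19 to 0.59, adjusted p = 0.86). With values read as Cy5 over Cy3, all 5 differences point to a larger size with the domain. The probes had been chosen for large values on the domain arrays, so this direction supports nothing, and none of the 5 passed over all probes. Read as treated over control, the difference was 0.01 for the passing probe. Under that reading it was -0.15, -0.04 and -0.06 for probes 35611, 35549 and 27723.

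**Figure D5:**
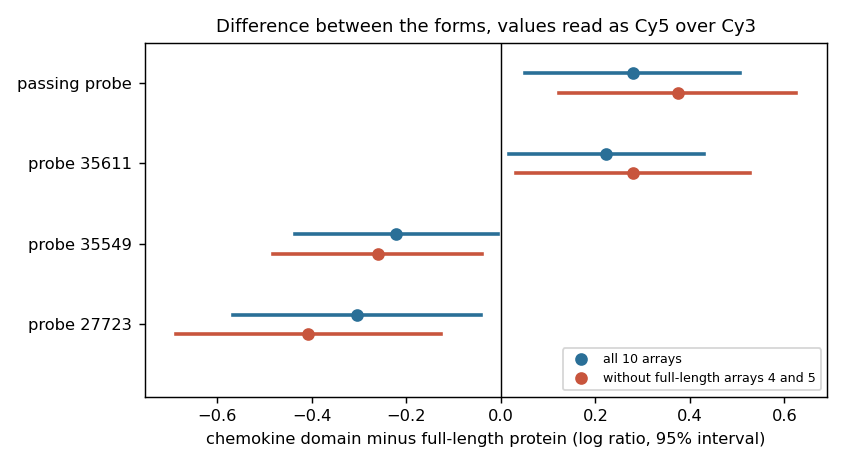
Log ratio with the chemokine domain minus that with the full-length protein for 4 probes chosen on the domain arrays, values read as Cy5 over Cy3, with 95% intervals from limma over all 10 arrays (blue) and without full-length arrays 4 and 5 (red). For the passing probe the difference is 0.28 over all arrays and 0.37 without the 2 arrays, and 0 probes passed an adjusted p of 0.05 in either fit.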

How the data were processed

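The authors deposited 1 log ratio (read as log2) per probe and array, and neither the labels nor the file header state the base of the logarithm, the direction, the normalisation or the scanner software. Values are printed as deposited log ratios, not as fold changes. RNA was extracted with a Promega SV kit and labelled with an Agilent linear amplification kit, per the labels' protocols. No signal intensities were used here, so background could not be checked, and the number of arrays limits the precision. Columns not used numbered 0.

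limma 3.58.1 in R 4.3.3 fitted the 5 domain arrays alone with a term that switches with the dye orientation and a constant term. The difference between forms was fitted over 10 arrays with a common dye term. Tests were two-sided, and p-values were adjusted (Benjamini-Hochberg) over 44290 probes. Named were at most 2 probes on either side of each term, with a single sign on 5 arrays (turned for the switching term, as deposited for the constant term), by log ratio among those passing and otherwise by moderated statistic; the probe that passed in an earlier fit of all 10 arrays was to be named too and is the passing probe. The comparison, lists and rules were chosen with earlier results of these data known. The script was tested on simulated data.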

Additional observations from a re-analysis of the deposited data

Results flagged for a closer look

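In 24 sets of 5 values (named probes on the arrays of each form and measures of the domain arrays), an array far from the other 4 was looked for, and 2 were found. Chance gives about 1 in 20 such sets. Probe 35611 had a turned value of 0.586 on domain array 5, against 0.398 to 0.45 on the other 4. The rank correlation between values at the same place in neighbouring lines of the table's apparent array layout was 0.056 on domain array 1 and 0.0129 to 0.0226 on arrays 2 to 5. Removing a position trend left the probe that passed unchanged (log ratio 0.80, adjusted p = 0.0032 in limma).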

How the results depend on the processing

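As reported, limma passed 1 probe for the switching component, 0 for the constant component and 0 for the difference between forms. Read as treated over control, the response passed for 0 probes and the dye term for 1, as both components exchange places, and the log ratios of probes 35611 and 27723 became -0.029 and 0.026. Without the fraction of 0.25 of the probes with the smallest spread the counts were 54 and 34. That filter made the estimated prior degrees of freedom infinite, so each probe's own spread no longer counted, and 30 of the 54 had a single value beyond 1 with the others under 0.5. Without full-length arrays 4 and 5 in a joint fit 7 passed for the domain, and with probes averaged per symbol 0 passed. With 1 array left out, the switching count was 1 to 8 and the constant count 0 to 7, highest without array 1, where 6 of 8 and 6 of 7 calls were single extreme values. Without any 1 of the 10 arrays the difference stayed at 0. Without full-length array 5 its smallest adjusted p in limma was 0.291, and 4183 probes had an unadjusted p under 0.05. Leaving out any other array gave smallest adjusted p of 0.8 to 0.981 and 1611 to 2641 such probes. A dye term per form gave 1 call for the difference, probe 43426, with -1.9 and -2.2 on full-length arrays 1 and 2. Where every value had to exceed 0.1, 530 probes switched. The cause of the other changes was not tested. Centring, scaling, array weights, robust empirical Bayes, no dye term and position trend removal, the last chosen after seeing the data, left the counts they were run for at 1 and 0. The array number as a fixed replicate block kept the difference at 0 calls (smallest adjusted p = 0.86), and as a random replicate block in a joint fit it kept 1 call for the domain. Deviations of equally numbered arrays of both forms correlated at -0.12 to 0.03. Each value is already a ratio within an isolation, so these correlations cannot decide whether equally numbered arrays shared an isolation or RNA.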
